A study of Homo sapiens with 12 samples.

Results

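CAB39L and the LKB1-AMPK axis were followed through 9 genes, CAB39L, CAB39, STK11, PRKAA1, PRKAA2, PRKAB1, PRKAB2, PRKAG1 and PRKAG2, by taking every probe set annotated to 1 of these symbols alone. This gave 13 of the 22215 probe sets tested, 1 each for 5 of the genes and several for the other 4. CAB39L was chosen because it was lower with CHD4 shRNA in both cell lines, so its values in that contrast are described and not tested. The other 8 genes, with 12 probe sets, were taken for their place in the same kinase pathway, and these were tested. The series holds 12 Affymetrix arrays of total RNA in 4 groups of 3: U937 with CHD4 shRNA, U937 with scrambled shRNA, MV4-11 with CHD4 shRNA and MV4-11 with scrambled shRNA. Both are human cell lines used to study acute myeloid leukaemia. U937 is of monocytic type, and MV4-11 is of myelomonocytic type and bears a rearranged MLL gene and mutant FLT3. Every group carried a lentiviral pRRL.H1.shRNA vector that also expresses GFP, so the controls share the vector and differ in the hairpin. The target is written CHD4 in the series description and CDH4 in the sample labels; CHD4 is the ATP-driven motor subunit of NuRD, a chromatin complex that also removes acetyl groups from histones. The description speaks of 1 targeting shRNA and the labels' protocol of shRNAs, and no label tells hairpins apart, so an effect of the loss of CHD4 and an effect of a hairpin on other transcripts cannot be told apart.

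LKB1, encoded by STK11, is a serine-threonine kinase that is active in a complex with the pseudokinase STRAD and the scaffold MO25. MO25 has 2 forms, MO25-alpha from CAB39 and MO25-beta from CAB39L. The LKB1 complex phosphorylates the activation loop of the catalytic alpha subunit of AMPK (PRKAA1 or PRKAA2), which binds a beta subunit that carries a glycogen-binding module (PRKAB1 or PRKAB2) and a gamma subunit that senses adenine nucleotides (PRKAG1 or PRKAG2). AMPK slows lipid and protein synthesis when energy is short, and in blood-forming cells LKB1 and AMPK are known for their part in the survival of stem cells and of leukaemia cells under metabolic stress. In monocytic leukaemia CAB39L has also been described as a tumour antigen.

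The promoter windows of CAB39L, PRKAG1 and CAB39 are shown because CAB39L had the largest change of these genes, PRKAG1 passed the test downward in both lines and CAB39, the paralog of CAB39L, passed in neither. Each window holds the 250 bases before the RefSeq start site on build GRCh38.p14, in lower case 5′ to 3′. Capitals mark matches on either strand to TGACGT, the core of the cyclic AMP response element, or to GGGCGG, the GC box. CACGTG and CCAAT were searched too and had no match in these windows.
CAB39L promoter, chr13:49401543-49401792, minus strand: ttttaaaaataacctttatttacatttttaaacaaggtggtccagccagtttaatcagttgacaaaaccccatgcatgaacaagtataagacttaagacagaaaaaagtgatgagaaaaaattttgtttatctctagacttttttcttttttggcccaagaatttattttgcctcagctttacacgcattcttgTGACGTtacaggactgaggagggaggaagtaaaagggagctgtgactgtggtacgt
PRKAG1 promoter, chr12:49018777-49019026, minus strand: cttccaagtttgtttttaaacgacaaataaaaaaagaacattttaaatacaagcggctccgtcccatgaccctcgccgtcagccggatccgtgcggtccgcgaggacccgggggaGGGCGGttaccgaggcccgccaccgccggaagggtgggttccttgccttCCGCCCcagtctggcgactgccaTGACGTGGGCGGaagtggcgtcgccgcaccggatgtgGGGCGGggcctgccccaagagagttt
CAB39 promoter, chr2:230712592-230712841, plus strand: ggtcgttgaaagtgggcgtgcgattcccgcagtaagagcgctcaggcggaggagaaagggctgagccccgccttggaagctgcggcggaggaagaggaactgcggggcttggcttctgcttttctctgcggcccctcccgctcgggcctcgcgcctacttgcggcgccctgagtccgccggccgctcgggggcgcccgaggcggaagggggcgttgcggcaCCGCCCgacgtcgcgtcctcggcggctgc
The CAB39L window had a GC content of 35.6% and 3 CG pairs, against 62.0% and 25 in PRKAG1, 72.0% and 33 in CAB39, and medians of 58.0% and 11 over all 35116 RefSeq promoter windows of the same length. The windows found for the other 6 genes, including the several windows of PRKAG2, had GC contents of 43.6% to 86.0%, and RefSeq also lists a downstream CAB39 window at 78.8%. TGACGT was present once in CAB39L and once in PRKAG1, where a GC box follows it with no shared base, and 7.1% of all windows hold it. GC boxes were present in PRKAG1, 4 times, and in CAB39, once, but not in this CAB39L window, and 42.6% of all windows hold one. These matches are letters in 1 window per start site, and the arrays do not show which start site a transcript came from. Whether the CAB39L window lies at the main start site of the gene was not tested.

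The values below are log2 RMA values, means carry the SD over 3 arrays, and changes are CHD4 shRNA minus scrambled shRNA on the log2 scale with their standard error (SE). The knockdown could be seen in CHD4 itself: its 3 probe sets were 3.36-fold to 4.58-fold lower in U937 and 3.39-fold to 3.99-fold lower in MV4-11, with limma adjusted p between 1.25e-05 and 6e-05. Of 11 markers of myeloid leukaemia cells 9 were measured, each ranked here by its brightest probe set among all probe sets. LYZ, PTPRC and FCER1G had brightness ranks of 91.6% to 99.1%. CSF3R, ITGAM and CSF1R lay just above the median, at 50.8% to 56.7%. SPI1, MPO and CD14 lay below it, at 42.0%, 26.6% and 22.9%. The T cell, B cell, erythroid, megakaryocytic, epithelial and other-tissue markers that were measured all lay below the median brightness, and of 3 fibroblast markers COL1A1 lay above it, at 59.5%. The mean of the myeloid markers was 8.42 to 8.45 on U937 CHD4 shRNA arrays against 7.98 to 8.22 on U937 scrambled arrays, and 8.26 to 8.58 on MV4-11 CHD4 shRNA arrays against 7.95 to 8.0 on MV4-11 scrambled arrays. The mean of 4 T cell markers also stood apart, at 5.92 to 6.12 against 5.52 to 5.80 in U937 and 5.96 to 6.06 against 5.54 to 5.66 in MV4-11. That of 3 erythroid and megakaryocytic markers stood apart in U937, at 5.37 to 5.72 against 5.30 to 5.32. In MV4-11 it overlapped, at 5.24 to 5.79 against 5.34 to 5.38. The part of these shifts in the results below was not tested. RNA came from whole cultures, in which fewer cells with a transcript and less transcript per cell cannot be told apart.

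CAB39L, read by 1 probe set (221003_s_at), was 4.05-fold lower in U937 and 8.36-fold lower in MV4-11 with CHD4 shRNA. In U937 its values were 7.90, 7.23 and 6.73 with CHD4 shRNA, against 9.29, 9.47 and 9.15 with scrambled shRNA. In MV4-11 they were 6.69, 6.21 and 8.09 with CHD4 shRNA, against 9.91, 9.61 and 10.66 with scrambled shRNA. All 6 CHD4 shRNA arrays lay below all 6 scrambled arrays, and the CHD4 shRNA arrays spread more widely, with an SD of 0.59 against 0.16 in U937 and 0.98 against 0.54 in MV4-11.

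The group means of CAB39L were 7.29 with CHD4 shRNA against 9.30 with scrambled shRNA in U937, and 7.0 against 10.06 in MV4-11, which leaves 24.7% and 12% of the control signal. MV4-11 scrambled cells had the highest mean, followed by U937 scrambled cells, U937 CHD4 shRNA cells and MV4-11 CHD4 shRNA cells. The means of both CHD4 shRNA groups lay within each other's SD, and the higher MV4-11 control level, 0.76 above U937 (SE 0.42), was not past the threshold of the fit (limma adjusted p = 0.36), although the 3 arrays of each line did not overlap. The change was -2.02 in U937 and -3.06 in MV4-11, a difference of -1.05 that is given as a description. As background, 1.63% of all probe sets were past the threshold downward in both lines (limma, Benjamini-Hochberg adjusted p under 0.05), a share from which nothing is read for a gene chosen by its fall.

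Array 3 of the MV4-11 CHD4 shRNA group held the highest CAB39L value of its group, 8.09, and its scrambled counterpart of the same number held the highest of the controls, 10.66. In MV4-11, where arrays of the same number deviated together, the differences within numbers 1, 2 and 3 were -3.22, -3.40 and -2.57. Beside these stand the CHD4 values of the same arrays. In MV4-11 CHD4 shRNA replicate 3 the 3 CHD4 probe sets stood at 7.78, 8.39 and 8.05, the lowest of the group by each. In U937 CHD4 shRNA cells the highest CHD4 value was in replicate 1, with the most CAB39L, by 201182_s_at and in replicate 3, with the least CAB39L, by the other 2 probe sets. Whether CAB39L followed the depth of the knockdown among these arrays was not tested. Leaving out 1 array at a time moved the CAB39L change between -2.32 and -1.74 in U937 and between -3.61 and -2.67 in MV4-11.

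**Figure D1:**
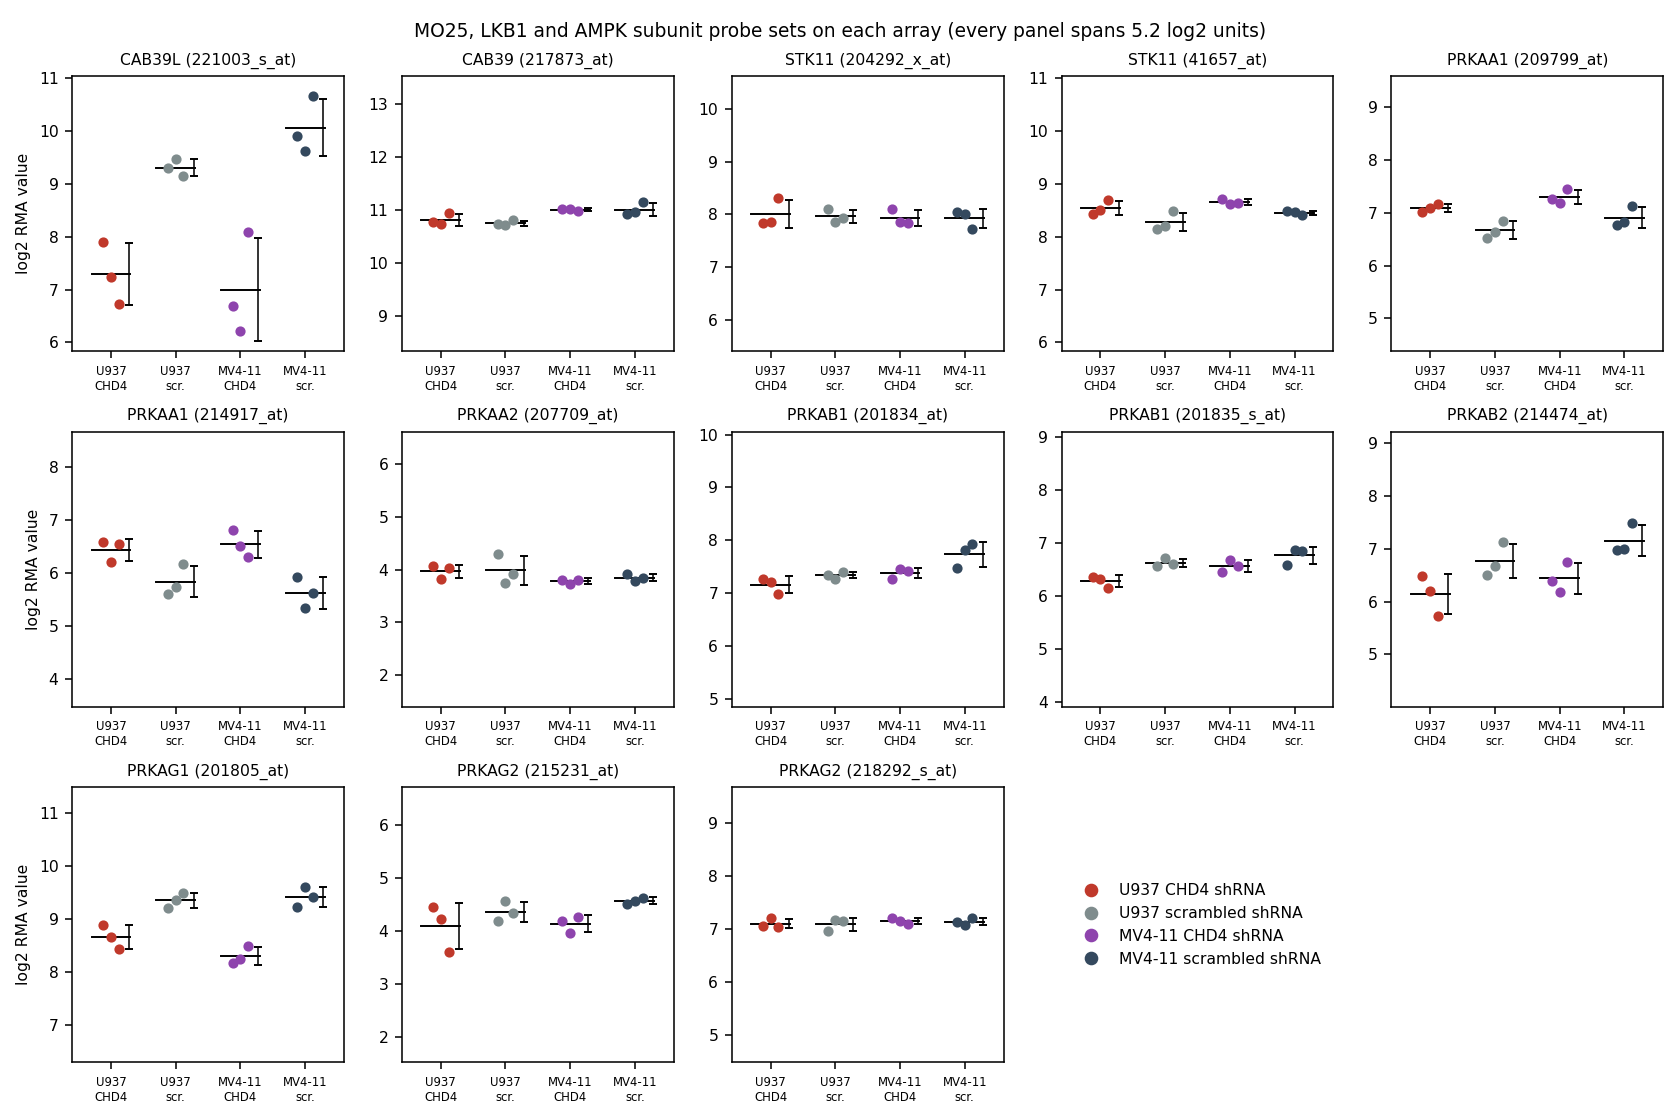
Each panel plots 1 probe set, with log2 RMA values on the vertical axis and the 4 groups along the horizontal axis (scr. stands for scrambled shRNA); points are single arrays, horizontal lines are means and vertical bars are the SD over 3 arrays. All panels span the same number of log2 units. CAB39L, chosen for its fall, separates by shRNA further than any other panel, while CAB39 lies between 10.72 and 11.15 on every array.

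CAB39, which encodes the MO25-alpha form, did not pass in either line. Its probe set stood at 10.77, 10.73 and 10.94 in U937 with CHD4 shRNA, against 10.74, 10.72 and 10.81 with scrambled shRNA. In MV4-11 it stood at 11.02, 11.03 and 10.99 with CHD4 shRNA, against 10.92, 10.96 and 11.15 with scrambled shRNA. The groups overlapped in both lines, and the change was 0.06 (95% interval -0.14 to 0.26; limma adjusted p = 0.84) in U937 and 0.00 (-0.20 to 0.20; adjusted p = 0.99) in MV4-11. A rise of CAB39 by more than a log2 of 0.26 lies outside both intervals.

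STK11, the LKB1 kinase itself, did not pass with either probe set. The probe set 204292_x_at, whose suffix marks probes that may also bind other transcripts, had a log2 difference of 0.04 (95% interval -0.27 to 0.34) in U937 and 0.01 (-0.30 to 0.31) in MV4-11. The other, 41657_at, stood at 8.43, 8.50 and 8.70 in U937 with CHD4 shRNA against 8.15, 8.20 and 8.48 with scrambled shRNA, and at 8.72, 8.62 and 8.64 in MV4-11 with CHD4 shRNA against 8.49, 8.46 and 8.41 with scrambled shRNA. Its change was 0.27 (SE 0.11, limma adjusted p = 0.20) in U937 and 0.21 (SE 0.11, adjusted p = 0.28) in MV4-11, and in MV4-11 every CHD4 shRNA array was above every scrambled array.

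PRKAG1, the gamma-1 regulatory subunit of AMPK, fell in both lines. In U937 its values were 8.89, 8.67 and 8.44 with CHD4 shRNA, against 9.21, 9.37 and 9.49 with scrambled shRNA. In MV4-11 they were 8.18, 8.25 and 8.50 with CHD4 shRNA, against 9.23, 9.61 and 9.42 with scrambled shRNA. All 6 CHD4 shRNA arrays were below all 6 scrambled arrays. PRKAG1 was 1.61-fold lower in U937 (log2 change -0.69, SE 0.14, limma adjusted p = 0.0139) and 2.16-fold lower in MV4-11 (log2 change -1.11, SE 0.14, adjusted p = 0.000825). The U937 call was lost without U937 scrambled replicate 2 (adjusted p = 0.0508) or 3 (0.0653) and without U937 CHD4 shRNA replicate 2 (0.057) or 3 (0.0655), with the change between -0.80 and -0.58 over all fits without 1 array. The MV4-11 call held in all 12 such fits. PRKAG2, the gamma-2 subunit, had no call: 218292_s_at had a log2 difference of 0.01 in both lines (95% interval -0.19 to 0.21 in each), and the dim 215231_at of -0.27 in U937 and -0.43 in MV4-11 (limma adjusted p = 0.50 and 0.175; 0.0467 in MV4-11 without U937 CHD4 shRNA replicate 3).

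PRKAA1, the alpha-1 catalytic subunit, was higher with CHD4 shRNA by both of its probe sets, and 1 of these passed in 1 line. The probe set 214917_at stood at 6.81, 6.50 and 6.31 in MV4-11 with CHD4 shRNA, against 5.92, 5.33 and 5.62 with scrambled shRNA, which is a 1.89-fold rise (log2 change 0.92, SE 0.19, limma adjusted p = 0.0113). This call was lost without MV4-11 CHD4 shRNA replicate 1 (adjusted p = 0.0625) and without MV4-11 scrambled replicate 2 (0.051). In U937 it stood at 6.58, 6.20 and 6.54 with CHD4 shRNA, against 5.60, 5.73 and 6.16 with scrambled shRNA, with a change of 0.61 (SE 0.19, adjusted p = 0.0883). The brighter 209799_at stood at 7.01, 7.08 and 7.17 in U937 with CHD4 shRNA against 6.52, 6.63 and 6.85 with scrambled shRNA, and at 7.25, 7.19 and 7.44 in MV4-11 with CHD4 shRNA against 6.76, 6.82 and 7.13 with scrambled shRNA. In both lines and for both probe sets every CHD4 shRNA array was above every scrambled array. Its changes of 0.42 and 0.39 (SE 0.12 in each) did not pass (limma adjusted p = 0.0745 in U937 and 0.072 in MV4-11). Under a within-line replicate block the MV4-11 change passed (adjusted p = 0.0122), and without MV4-11 scrambled replicate 3 both did (0.0493 in U937 and 0.042 in MV4-11). In U937, where numbers were not taken as pairs, the within-line block gave adjusted p = 0.0137 for 209799_at and 0.0217 for 214917_at. With a block shared by both lines 209799_at passed in both (0.0228 in U937 and 0.0235 in MV4-11). PRKAA2, the alpha-2 subunit known from muscle, had a mean of 3.89 over the 12 arrays, a brightness rank of 8.9% among all probe sets, and changes of -0.01 and -0.07 (SE 0.13 in each).

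The beta subunits were lower on average with CHD4 shRNA in both lines without passing the threshold. PRKAB2, the beta-2 subunit, stood at 6.48, 6.19 and 5.73 in U937 with CHD4 shRNA against 6.50, 6.67 and 7.12 with scrambled shRNA, and at 6.38, 6.18 and 6.75 in MV4-11 with CHD4 shRNA against 6.97, 7.0 and 7.49 with scrambled shRNA. The groups did not overlap, although in U937 the nearest arrays were 6.48 and 6.50. Its change was -0.63 (SE 0.22, limma adjusted p = 0.14) in U937 and -0.72 (SE 0.22, adjusted p = 0.0681) in MV4-11; the MV4-11 value passed under the within-line replicate block (adjusted p = 0.0433), without U937 CHD4 shRNA replicate 3 (0.044) and without MV4-11 CHD4 shRNA replicate 3 (0.0241). PRKAB1, the beta-1 subunit, had log2 differences of -0.19 and -0.35 by 201834_at and of -0.35 and -0.20 by 201835_s_at, in U937 and MV4-11 in that order, with limma adjusted p between 0.0837 and 0.51. In MV4-11 the first of these passed under the within-line replicate block (adjusted p = 0.0458) and without MV4-11 scrambled replicate 1 (0.0351). In U937, where numbers were not taken as pairs, the within-line block gave adjusted p = 0.0302 for 201835_s_at.

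Of the 12 probe sets other than CAB39L, 0 rose and 1 fell in U937, where 4.51% of all probe sets were called, 1.86% upward and 2.65% downward. In MV4-11 1 rose and 1 fell, where 7.47% were called, 3.88% upward and 3.59% downward. Under the within-line replicate block 5 of the 12 were called in MV4-11, against 16.7% of all probe sets. Counts this small are not read as setting these genes apart from the rest of the array. The count of 1 in U937 went to 0 in the 4 fits that lost PRKAG1 and to 2 without MV4-11 scrambled replicate 3, and the count of 2 in MV4-11 was 1 without MV4-11 CHD4 shRNA replicate 1 or MV4-11 scrambled replicate 2 and 4 without U937 CHD4 shRNA replicate 3. CHD4 shRNA and scrambled arrays did not overlap for 5 of the 12 in U937, 2 higher and 3 lower, where this held for 24.2% of all probe sets (10.9% higher, 13.3% lower). They did not overlap for 7 in MV4-11, 3 higher and 4 lower, against 23.8% of all probe sets (10.8% higher, 13.0% lower). The median change was 0.00 in U937 and -0.03 in MV4-11, against 0.00 and -0.03 over all probe sets, with a range of -0.69 to 0.61 and of -1.11 to 0.92.

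**Figure D2:**
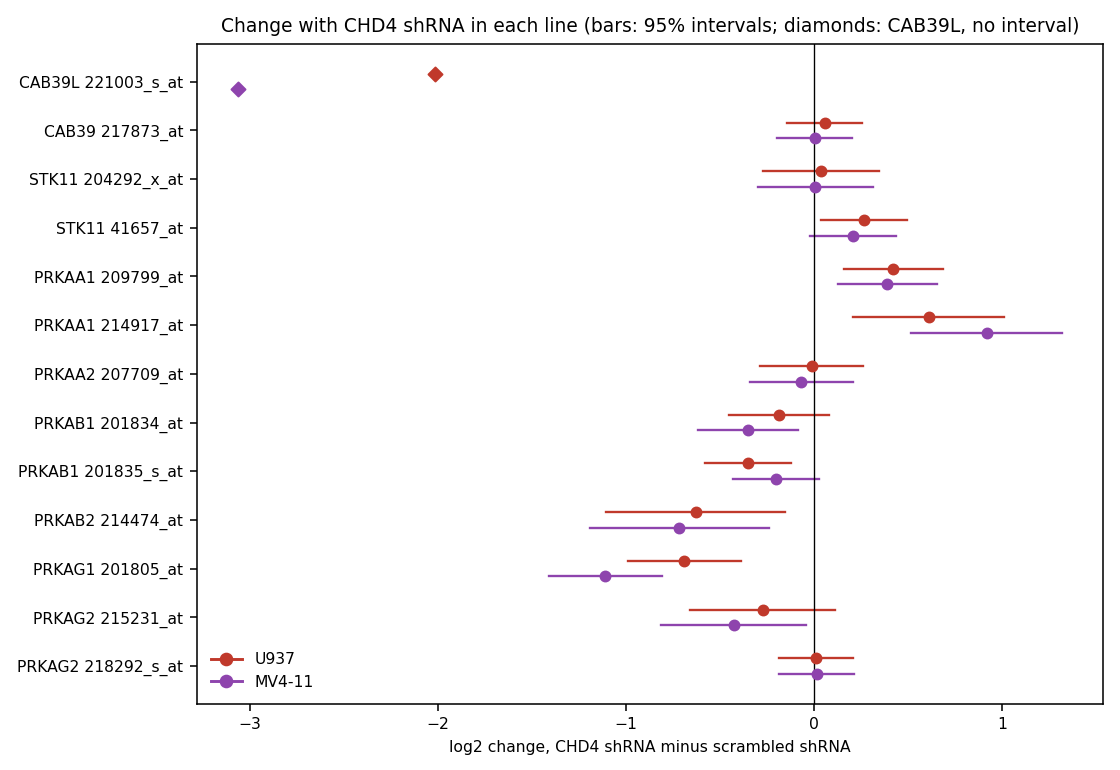
The horizontal axis is the log2 change, CHD4 shRNA minus scrambled shRNA, for each probe set in U937 (red) and MV4-11 (purple); bars are 95% intervals from the limma fit and diamonds mark CAB39L, for which no interval is given. PRKAG1 lies left of 0 and both PRKAA1 probe sets right of 0 in both lines, and both CAB39 intervals lie between -0.20 and 0.26.

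The changes were also compared between the lines. The difference, the change in MV4-11 minus that in U937, was past the threshold for 0 of the 12 probe sets (limma, lowest adjusted p = 0.94) and 0 had an unadjusted p under 0.05, with differences between -0.42 for PRKAG1 (SE 0.20) and 0.31 for the PRKAA1 probe set 214917_at (SE 0.26). Over all probe sets the count was 0 as well, so 0% stands behind it.

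Between the scrambled controls, MV4-11 minus U937, 0 of the 13 probe sets passed (limma), where 4.45% of all probe sets were called; 2 had an unadjusted p under 0.05. These were PRKAB1 by 201834_at, at 7.47, 7.81 and 7.93 in MV4-11 against 7.35, 7.28 and 7.41 in U937 (difference 0.39, SE 0.12, adjusted p = 0.0996, and 0.0225 without MV4-11 scrambled replicate 1), and CAB39 (difference 0.25, SE 0.09, adjusted p = 0.153). CAB39L, with the widest spread, had the largest difference of the 13. The arrays of the lines did not overlap for these 3 probe sets, MV4-11 being higher, as for 10.9% of all probe sets. By the other PRKAB1 probe set, 201835_s_at, they overlapped (difference 0.14, SE 0.11). These control arrays are the same ones that enter the changes above.

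The rest of the pathway was read through 5 lists, of which 38 of 50 genes were measured by 81 probe sets. In U937 3 of the 81 were called, all upward and all of CREM, and in MV4-11 8 were called, 5 upward and 3 downward, which is 3.7% and 9.88% beside 4.51% and 7.47% of all probe sets. The median change was -0.07 in U937 and -0.06 in MV4-11. Under the within-line replicate block 20 were called in MV4-11, against 16.7% of all probe sets. Without 1 array the MV4-11 count was 5 (without U937 scrambled replicate 1, U937 CHD4 shRNA replicate 1 or 2, MV4-11 CHD4 shRNA replicate 2 or MV4-11 scrambled replicate 3), 4 (without U937 scrambled replicate 2, MV4-11 CHD4 shRNA replicate 1 or MV4-11 scrambled replicate 2) or 17 (without MV4-11 CHD4 shRNA replicate 3). The U937 count was 5 without MV4-11 CHD4 shRNA replicate 2 or 3.

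The kinases that bind MO25 or LKB1 directly had no call in either line: 0 of 9 probe sets passed for STRADA, STK24, STK25, STK26, OXSR1 and STK39, with changes of -0.41 to 0.13 in U937 and -0.42 to 0.04 in MV4-11. STRADA, the pseudokinase of the LKB1 complex, had log2 differences of -0.41 and -0.31 by 221554_at (limma adjusted p = 0.122 in U937 and 0.20 in MV4-11). By its brighter probe set 52169_at they were -0.20 and -0.24 (limma adjusted p = 0.419 and 0.222). Under the within-line replicate block STK39, a kinase of ion transport that binds MO25, passed in MV4-11 (log2 change -0.42, adjusted p = 0.00736), as did 1 of 3 probe sets of STK24 (-0.29, adjusted p = 0.0285). In U937, where numbers were not taken as pairs, the block gave adjusted p = 0.0219 for STK39 and 0.0427 for STRADA by 221554_at.

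Among the other inputs to AMPK 1 of 8 probe sets was called, in MV4-11 alone. CAMKK2, a calcium-dependent kinase that also phosphorylates AMPK, stood at 7.89, 8.01 and 8.02 with CHD4 shRNA against 8.56, 8.51 and 8.21 with scrambled shRNA by 212252_at. This is a fall of 0.45 on the log2 scale (SE 0.13, limma adjusted p = 0.0451); the call held in 4 of 12 fits without 1 array, those without replicate 3 of any group, and the adjusted p was between 0.0549 and 0.168 in the other 8. The other 3 CAMKK2 probe sets had log2 differences of -0.08 to -0.37 in MV4-11 and did not pass, and none of the 4 passed in U937.

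Of the AMPK-related kinases that LKB1 activates, 1 of 18 probe sets was called, in MV4-11. SIK3, a salt-inducible kinase that restrains CRTC coactivators, had a change of 0.56 (SE 0.16, limma adjusted p = 0.0478) by 213034_at, from values of 8.20, 8.37 and 7.71 with CHD4 shRNA against 7.57, 7.75 and 7.29 with scrambled shRNA, which overlapped. It was no longer called in 11 of 12 fits that left out an array (adjusted p between 0.0515 and 0.177) and held without MV4-11 CHD4 shRNA replicate 3. The other 3 SIK3 probe sets had log2 differences of 0.13 to 0.59 in MV4-11 and did not pass. Under the within-line replicate block 204156_at (adjusted p = 0.00829) and 204157_s_at (0.0131) did, among 6 of the 18, against 16.7% of all probe sets. In U937 the probe set 213034_at had a log2 difference of 0.52 (SE 0.16, adjusted p = 0.0857, and 0.022 without MV4-11 CHD4 shRNA replicate 3), and its arrays did not overlap. With the within-line block its U937 adjusted p was 0.00734, though U937 numbers were not taken as pairs.

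None of the 23 probe sets of 12 AMPK substrates was called in either line, and the median change was -0.08 in both. Under the within-line replicate block 5 passed in MV4-11, where 16.7% of all probe sets were called. Among them were all 3 probe sets of TXNIP, a regulator of glucose uptake and redox state that AMPK phosphorylates, at -0.58 to -0.64 (adjusted p between 0.00723 and 0.0136 with the block and between 0.0586 and 0.197 without it); TXNIP was picked out after its values were seen. ULK1, the kinase that starts autophagy, had log2 differences of 0.07 in U937 and 0.08 in MV4-11, and ACACA, acetyl-CoA carboxylase, of -0.14 and -0.08 by its brighter probe set 212186_at.

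The transcripts that CREB and its CRTC coactivators are known to induce did not move one way. CREM, a CREB-family transcription factor with activating and repressing forms, rose by 3 of its 4 probe sets in U937 and all 4 in MV4-11, and PDE4B, which degrades cyclic AMP, fell by 2 of 3 in MV4-11. These genes hold all 3 calls of the list in U937 and all 6 in MV4-11, out of 23 probe sets. Of all probe sets 4.51% were called in U937 and 7.47% in MV4-11. CREM by 209967_s_at stood at 7.89, 8.01 and 8.53 in U937 with CHD4 shRNA against 7.24, 7.10 and 7.31 with scrambled shRNA, and at 9.0, 8.96 and 8.56 in MV4-11 with CHD4 shRNA against 7.73, 7.48 and 7.32 with scrambled shRNA.

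No CHD4 shRNA array overlapped the scrambled arrays of its line for this CREM probe set. It was 1.90-fold higher in U937 (log2 change 0.93, SE 0.17, limma adjusted p = 0.00902) and 2.51-fold higher in MV4-11 (1.33, SE 0.17, adjusted p = 0.000954). The probe set 214508_x_at rose by 0.77 and 0.89 (SE 0.11; adjusted p = 0.00172 and 0.000683), and both calls of these probe sets held in all 12 fits without 1 array. The rise by 207630_s_at in U937, 0.69, was lost without U937 scrambled replicate 1 (adjusted p = 0.0628) or 3 (0.0507). The dim 210171_s_at rose by 0.46 in MV4-11 (adjusted p = 0.0396), a call lost in 9 of 12 fits without 1 array and held without U937 CHD4 shRNA replicate 2 or 3 or U937 scrambled replicate 3.

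PDE4B by 203708_at stood at 7.37, 6.94 and 6.68 in U937 with CHD4 shRNA against 7.91, 8.05 and 7.96 with scrambled shRNA, and at 5.5, 5.43 and 6.57 in MV4-11 with CHD4 shRNA against 7.14, 7.38 and 7.68 with scrambled shRNA. As for CAB39L, replicate 3 held the highest value of the MV4-11 CHD4 shRNA group. The change was -0.98 in U937 (SE 0.26, limma adjusted p = 0.0536) and -1.57 in MV4-11 (SE 0.26, adjusted p = 0.00433), the second 2.96-fold lower and called in all 12 fits without 1 array. Under the within-line replicate block, with U937 numbers not taken as pairs, the U937 change passed (adjusted p = 0.0102). It also passed without U937 CHD4 shRNA replicate 1 (adjusted p = 0.0393) and without MV4-11 CHD4 shRNA replicate 2 (0.0338) or 3 (0.00488). The fall of 211302_s_at in MV4-11 (-0.68, adjusted p = 0.0377) was lost in 6 of 12 such fits, and 215671_at had a log2 difference of -0.01. FOS, DUSP1, PDE4D and the nuclear receptors NR4A1, NR4A2 and NR4A3 had no call in either line.

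**Figure D3:**
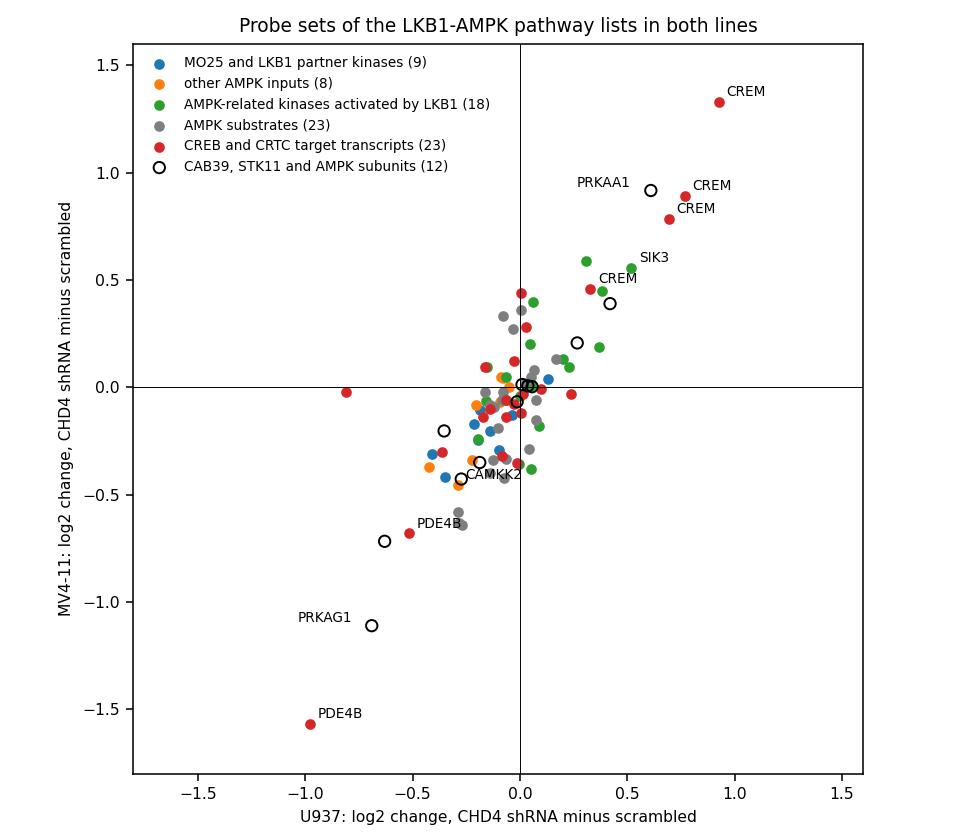
Each point is 1 probe set, with its log2 change in U937 on the horizontal axis and in MV4-11 on the vertical axis, coloured by pathway list; open circles are the 12 probe sets of CAB39, STK11 and the AMPK subunits, and genes called in either line are named. CREM lies at the upper right, up to 0.93 and 1.33, and PRKAG1 and PDE4B at the lower left, while most points lie near 0.

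On chromosome 13 the 4 nearest measured protein-coding genes on each side of CAB39L had smaller differences than CAB39L, which was chosen for its fall. On 1 side lie CDADC1, MLNR, FNDC3A and CYSLTR2, and on the other RCBTB1, KPNA3, SPRYD7 and TRIM13; their 10 probe sets had log2 differences of -0.49 to 0.33 in U937 and of -0.60 to 0.04 in MV4-11. CDADC1, the adjacent gene, had a log2 difference of 0.10 in U937 (SE 0.27, limma adjusted p = 0.915) and of -0.55 in MV4-11 (SE 0.27, adjusted p = 0.257). Of these 10 probe sets 2 were called in U937 and 1 in MV4-11, against 4.51% and 7.47% of all probe sets. All of these calls were of KPNA3, a nuclear import receptor with 6 annotated genes between it and CAB39L. Its probe set 221502_at changed by -0.35 in U937 (SE 0.09, adjusted p = 0.0481) and -0.40 in MV4-11 (adjusted p = 0.0201), and 221503_s_at by -0.49 in U937 (adjusted p = 0.0401), with -0.35 in MV4-11 (0.104).

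The U937 call of 221502_at was lost in all 12 fits without 1 array and that of 221503_s_at in 8, and the MV4-11 call of 221502_at was lost without MV4-11 CHD4 shRNA replicate 1 or 2 or MV4-11 scrambled replicate 1 or 3 (adjusted p between 0.065 and 0.0736). Under the within-line replicate block 221503_s_at (adjusted p = 0.0221) and RCBTB1 (-0.60, adjusted p = 0.0143) passed in MV4-11; RCBTB1 also passed without MV4-11 CHD4 shRNA replicate 3 (0.00507). SETDB2 and PHF11, which the annotation places between CAB39L and RCBTB1, were not analysed here.

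**Figure D4:**
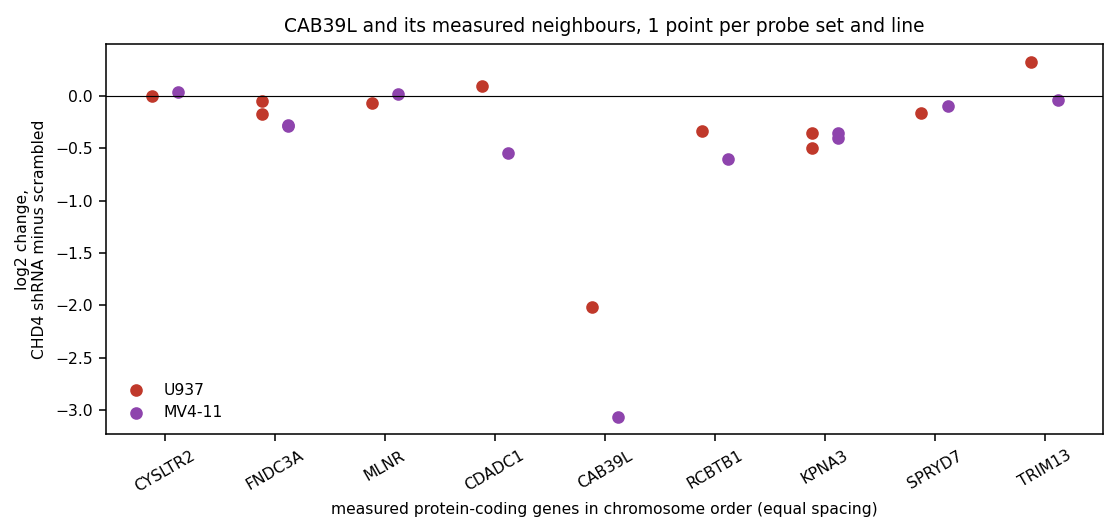
The measured protein-coding genes around CAB39L are set in chromosome order with equal spacing, and the vertical axis is the log2 change, CHD4 shRNA minus scrambled shRNA, with 1 point per probe set in U937 (red) and MV4-11 (purple). CAB39L lies at -2.02 and -3.06, and its neighbours lie between -0.60 and 0.33.

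Over the 12 arrays the probe sets most like CAB39L, by Pearson correlation, were those of GALNT3, a glycosyltransferase of mucin-type glycosylation (r = 0.983), 202085_at, which has no single gene symbol here (0.982), PPP2R5A, a regulatory subunit of protein phosphatase 2A (0.978), AGO3, an Argonaute protein of RNA silencing (0.975), and HPS4, a factor of lysosome-related organelle formation (0.974). Most opposite were CSRP1 (r = -0.991), INAVA (-0.988), the ephrin EFNA4 (-0.984), the Src-family kinase FYN (-0.982) and UPB1, an enzyme of pyrimidine breakdown (-0.980). Among the pathway's own genes PRKAG1 was the most like CAB39L (r = 0.916, the 166th most alike probe set), followed by PRKAB2 (0.859), and the PRKAA1 probe set 214917_at the most opposite (-0.844). The 12 points of each correlation share 2 cell lines, each with CHD4 shRNA and scrambled shRNA, so these values are descriptions with no p. CAB39L was chosen for its fall with CHD4 shRNA, and that step enters every correlation. The places of PRKAG1, PRKAB2 and PRKAA1 thus restate their changes with CHD4 shRNA and are not read as a further link to CAB39L.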

How the data were processed

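Total RNA of 12 samples was labelled with biotin and read on Affymetrix arrays, per the labels' protocols. The authors deposited 1 table of log2 values, produced by RMA (background correction, quantile normalization, summary per probe set), per the submitters' processing notes. The sources used here do not give the RMA version or say whether the arrays went through it as 1 set. That values are log2 follows from their range (2.54 to 15.05 without controls; array medians 6.96 to 7.01). Quantile normalization hides changes shared by most genes, background compresses changes of dim probe sets, and the number of arrays limits precision. Of 22277 probe sets 62 controls were left out; of 22215, 19064 had 1 gene symbol, 1043 several and 2108 none, and 19052 of the probe sets with 1 symbol were matched to RefSeq by Entrez identifier. Triplicates were biological per the series description; p-values measure the spread between these arrays.

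One limma 3.58.1 model (R 4.3.3; lmFit, eBayes; 8 residual and 4.86 prior degrees of freedom) with 4 group means was fitted to all 12 arrays. Benjamini-Hochberg adjustment ran over all 22215 probe sets, and an adjusted p under 0.05 counts as called, risen or fallen. The fit was tested on simulated data. Members and lists were chosen with earlier results of these data known. All probe sets of the 9 genes are reported. List members are named if called in either line, neighbours and most-alike probe sets by rank. Some uncalled list members are named too, with values for STRADA, STK24, STK39, TXNIP, ULK1 and ACACA. List genes without a probe set of their own symbol alone were not analysed here. Replicate numbers come from the titles. Deviations of arrays with the same number correlated at 0.432 to 0.494 in MV4-11, against -0.361 to -0.035 for unlike numbers. In U937 they correlated at 0.012 to 0.36, against -0.412 to 0.174. Deviations from a group mean cancel out within the group. Positive values for like numbers thus go with negative ones for unlike numbers, and the ranges are not independent. From these same data MV4-11 arrays were taken as pairs and U937 arrays were not. The main fit has no pair term in either line, so its MV4-11 calls leave the pairs out. Pairs enter only in the same-number differences and the replicate blocks. Promoter sequences are from RefSeq (GRCh38.p14), matched by symbol for all 9 genes. Alternatives were a filter on the dimmest 25%, 2 other normalizations, trended robust moderation, 1 probe set per gene, fits of the compared groups alone, replicate blocks, other thresholds and leaving out each array.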

Additional observations from a re-analysis of the deposited data

How the results depend on the processing

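The CAB39L change was -2.01 in U937 and -3.02 in MV4-11 with quantile normalization, and -2.02 and -3.08 with median centring. Over these and the fits without each array it moved by at most 0.306 in U937 and 0.547 in MV4-11. The SD between replicates pooled over the 2 groups of the line was 0.43 and 0.79. With so few arrays per group, leaving out an array cannot move the change by more than this SD. Nor can it turn the sign, because the CHD4 shRNA arrays all lay below the scrambled arrays. The shifts without each array are thus a description and not a test of stability. For the 12 other member probe sets 891 of 912 values under an alternative stayed on their side of the threshold, 6 lost a call and 15 gained one. The sign turned in 54 of them, over 19 results of at most 0.153 on the log2 scale, and 0 of these were called (lowest adjusted p = 0.611). For CHD4, the named pathway probe sets and the neighbours 731 of 820 stayed on their side, 70 lost a call and 19 gained one; the sign turned in 11, over 6 uncalled results of at most 0.10. The cause of a lost or gained call was not tested.

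Counts of members called were 1 in U937, 2 in MV4-11 and 0 between the scrambled controls. With a replicate block within each line they were 4 and 5, and 2 in U937 with a block shared by both lines; in U937 the numbers were not taken as pairs. At an adjusted p under 0.01 they were 0 and 1, and with 1 probe set per gene 1 in MV4-11. Without 1 array they ran from 0 to 2 in U937, 1 to 4 in MV4-11 and 0 to 1 in the controls.

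Counts over all probe sets were 1002 in U937, 1659 in MV4-11, 988 between the controls and 0 for the difference of changes. With the block within each line they were 2151 and 3700. At an adjusted p under 0.01 they were 334, 514 and 349, and with a 1.5-fold minimum 588, 913 and 591. With only the groups compared the count was 718 in MV4-11, and with 1 probe set per gene, which tests fewer probe sets, 655 in the controls. Without 1 array they ran from 396 to 1210 in U937, 546 to 3143 in MV4-11, 421 to 1280 in the controls and 0 to 4 for the difference (4 without MV4-11 CHD4 shRNA replicate 2).

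Counts of pathway probe sets called were 3 in U937 and 8 in MV4-11. In U937 they were 5 with quantile normalization, 6 with only the groups compared and 10 with the block within each line; in MV4-11 they were 3 with 1 probe set per gene, 5 with only the groups compared or a 1.5-fold minimum, 4 at an adjusted p under 0.01 and 20 with the block within each line. Without 1 array they ran from 2 to 5 and from 4 to 17. The block within each line gives no value between the controls, where each block lies in 1 line, and the difference of changes has no fit with only 2 groups. Probe sets of PRKAA2 and the dim one of PRKAG2 lie near the bottom of the signal range, where a change could be missed.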
